A study of Mus musculus with 2 samples.

Results

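The crystallin genes were described in single cells of the murine retinal pigment epithelium (RPE). The members were 8 genes, chosen by symbol and not by a measured value, namely Cryaa, Cryab, Cryba1, Cryba2, Cryba4, Crybb2, Crybb3 and Crygs, of 27998 genes listed in each matrix. Cells came from 2 male C57BL/6J mice, R1 and R2, aged P36 in the protocol and 4 to 5 weeks in the sample labels, with a single untreated condition, and both eyes of an animal went into 1 pool. The lens, cornea and iris were removed and the retina was peeled away before RPE sheets were released with trypsin, and viable cells were sorted with calcein AM, so the cells are those that survived this preparation. Transcripts were counted by unique molecular identifiers (UMIs) in 10x Genomics droplets, so that each captured molecule counts once, near its 3′ end. After filtering, 2671 cells of R1 and 2847 cells of R2 were kept, with 23996151 and 26969620 UMIs, a median of 8269 and 7666 UMIs per cell and a range from 2145 to 33313 and from 2745 to 34617.

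Cells were divided by the share of UMIs taken by Ttr, which encodes the retinol carrier partner transthyretin and is abundant in RPE. Cells with Ttr of at least 5% of UMIs (2614 and 2828 in R1 and R2) are called high-Ttr cells here, and those under 3% numbered 57 and 19 and are called low-Ttr cells. No kept cell of either mouse fell between 3% and 5%. The lowest Ttr share in high-Ttr cells was 5.18% in R1 and 5.14% in R2, and the highest in low-Ttr cells was 2.66% and 0.755%. The RPE markers other than Ttr were 7 genes such as Rpe65, which isomerizes retinyl esters in the visual cycle. They summed to 392 and 441 UMIs per 10000 in high-Ttr cells and to 35.7 and 23.3 in low-Ttr cells. Best1 was at 0 in low-Ttr cells of both mice. It had only 7 and 11 UMIs in all high-Ttr cells, so this 0 shows no difference between the classes. Both Pax6 and Dkk3 were found in 44 of the 57 low-Ttr cells (R1) and 11 of the 19 (R2), and 3 in each mouse were marked for microglia or fibroblasts by at least 3 genes of those lists. Low-Ttr cells were shallower, with medians of 3180 and 3836 UMIs, while high-Ttr cells had 8426.5 and 7689, and 12 cell barcodes occurred in both mice.

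Crystallins are the soluble proteins that fill the fibre cells of the lens and give it its refractive power. The α-crystallins, encoded by Cryaa and Cryab, are small heat shock proteins that bind unfolding proteins and keep them from aggregating, whereas the β- and γ-crystallins, encoded by the Cryb and Cryg genes, share another fold and are mostly structural. Cryaa is largely a lens gene, while Cryab is also made in heart, skeletal muscle, glia and other stressed or long-lived cells, and several crystallins have been described in the retina and RPE. In GENCODE M21 on GRCm38, Cryab (ENSMUSG00000032060) lies at chr9:50751325-50756636 on the plus strand, and 1030 bases of it overlap the span of Hspb2, another small heat shock gene on the opposite strand at chr9:50751078-50752354. Cryaa lies at chr17:31677807-31681733 on the plus strand. The other members are on minus strands, Cryba1 at chr11:77718615-77725283, Cryba2 at chr1:74889934-74893143, Cryba4 at chr5:112246493-112252518, Crybb2 at chr5:113058258-113070117, Crybb3 at chr5:113075839-113081584 and Crygs at chr16:22805203-22811577. Genes on the opposite strand also overlap all 3927 bases of Cryaa (AC090881.2), all 6669 of Cryba1 (Nufip2) and 481 of Crybb2 (Gm43247). The effect of such overlaps on the counts was not tested.

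RefSeq promoters on GRCm38.p6, 250 bases before and 50 after the gene start, matched 7 of the 8 members. The member without one was Cryab, so the promoter values below cover only members with few or no UMIs. Those of Cryaa (chr17:31677681-31677980, plus strand), Cryba1 (chr11:77725244-77725543, minus strand) and Crybb3 (chr5:113081535-113081834, minus strand) are shown because they carry the regulatory sequence of an α-, a βA- and a βB-crystallin that had few or no UMIs in these cells. Capitals mark TGCTGA on either strand, thus also TCAGCA, which is the core of the half-site bound by Maf proteins, regulators of crystallin genes in lens fibres, and TATAAA on the strand of the gene. The sequences run 5′ to 3′ on the strand of the gene, and the printed matches share no letters.
Cryaa: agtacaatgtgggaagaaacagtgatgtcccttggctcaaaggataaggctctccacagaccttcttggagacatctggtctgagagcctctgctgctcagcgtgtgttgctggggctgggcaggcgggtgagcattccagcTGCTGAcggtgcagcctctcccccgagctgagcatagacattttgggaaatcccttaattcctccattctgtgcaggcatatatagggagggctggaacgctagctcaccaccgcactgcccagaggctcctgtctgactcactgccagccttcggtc
Cryba1: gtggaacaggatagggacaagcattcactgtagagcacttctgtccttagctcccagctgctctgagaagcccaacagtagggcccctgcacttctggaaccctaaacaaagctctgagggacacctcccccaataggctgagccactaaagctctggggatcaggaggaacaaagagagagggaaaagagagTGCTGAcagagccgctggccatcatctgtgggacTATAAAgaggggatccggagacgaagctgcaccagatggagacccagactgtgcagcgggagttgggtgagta
Crybb3: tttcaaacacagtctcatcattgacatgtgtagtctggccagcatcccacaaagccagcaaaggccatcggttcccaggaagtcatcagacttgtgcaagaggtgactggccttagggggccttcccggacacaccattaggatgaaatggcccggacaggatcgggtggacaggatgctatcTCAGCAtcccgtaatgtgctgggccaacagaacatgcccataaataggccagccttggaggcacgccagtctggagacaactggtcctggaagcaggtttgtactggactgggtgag
TGCTGA occurred in 6 of the 7 member promoters and in 19.5% of all 32851 promoters of 300 bases, and TATAAA in 3 of 7 and in 8.32%. A match is only a run of letters in this window, and whether any factor binds there was not measured.

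Cryab was the one member present throughout the RPE cells. High-Ttr cells held 29446 Cryab UMIs in R1 and 31988 in R2, and low-Ttr cells 274 and 156. Cryab accounted for 99.98% of the UMIs of all 8 members in R1 and for 99.95% in R2. By summed UMIs, which are not divided by gene length, Cryab ranked 64 of 15553 genes with UMIs in the high-Ttr cells of R1 and 64 of 15221 in R2. In low-Ttr cells it ranked 76 of 10019 and 49 of 8240. A chaperone transcript of the lens was therefore among the more abundant transcripts of both classes of cells in both mice.

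The β- and γ-crystallins among the members were at or close to 0. Cryba1, Cryba2, Cryba4, Crybb2 and Crygs, which encode βA-, βB- and γS-crystallin of the lens, had 0 UMIs in all 2844 deposited cells of R1 and all 2994 of R2, also before any filter. A count of 0 in the high-Ttr cells allows up to 3 counts, or 0.00126 UMIs per 10000 in R1 and 0.00112 in R2, and up to 0.115% and 0.106% of cells with a UMI. In low-Ttr cells the same limit is 0.163 and 0.329 UMIs per 10000, so low levels there were not detectable at this depth. Intervals and limits given here cover counting error only. The lens had been removed, so whether their transcripts would be counted in these libraries could not be checked.

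Cryaa, the lens α-crystallin that pairs with Cryab, had 0 UMIs in R1 and 2 UMIs in R2. Both UMIs were in a single high-Ttr cell with 12367 UMIs, 12 of them from Cryab. Crybb3, a basic β-crystallin, had 6 UMIs in 5 cells of R1 and 13 UMIs in 7 cells of R2, all high-Ttr cells. This is a level of 0.00252 UMIs per 10000 in R1 (95% exact Poisson interval 0.000925 to 0.00548) and 0.00484 in R2 (0.00258 to 0.00827), and the intervals overlap. In the plot of levels by gene and mouse, Cryab stands alone near the top and the other members lie at or near the counting limit.

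**Figure D1:**
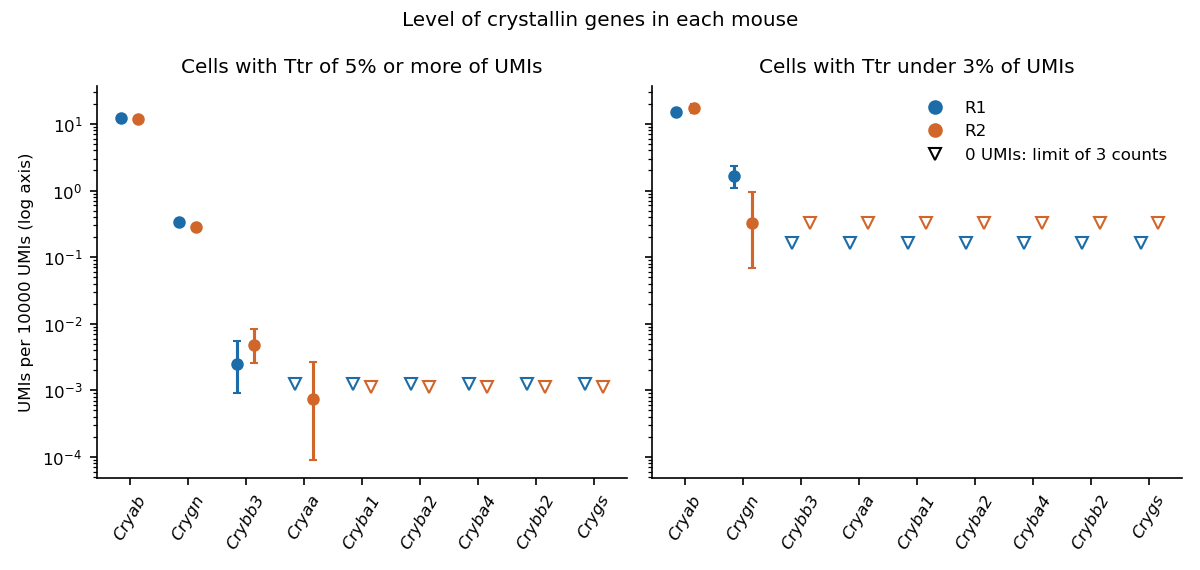
UMIs per 10000 UMIs on a log axis for the 8 members and Crygn in high-Ttr cells (left) and low-Ttr cells (right) of R1 and R2. Points are summed levels with 95% exact Poisson intervals, and open triangles mark 0 UMIs at the level 3 counts would give. Cryab lies between 11.9 and 17.1 in every mouse and class, and no member other than Cryab has a UMI in low-Ttr cells.

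The few Crybb3 UMIs were held by few cells. In R2, 5 of the 7 cells had 2 or more UMIs, where a Poisson draw in proportion to the UMIs of each cell would give 0.0435 such cells. In R1, 1 of the 5 cells had 2 UMIs, where 0.00879 would be drawn. At least 1 cell with 2 or more UMIs occurred for 77.6% of genes with 5 to 19 UMIs in R1 and for 87.7% in R2. Having 1 such cell was thus not peculiar to Crybb3. How many of those genes had as many as 5 such cells was not counted. The cells with Crybb3 held 9057 to 20197 UMIs (R1) and 6476 to 31156 UMIs (R2), and each had Cryab as well, with 9 to 18 UMIs in R1 and 2 to 45 in R2. In R2, 6 of the 7 cells were at least as deep as 89.9% of the kept cells, but in R1 only 2 of the 5 were, and the other cells of R1 were at least as deep as 56.0% to 62.1%. The part of depth was not tested.

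Cryab was found in nearly every high-Ttr cell. At least 1 UMI was seen in 97.8% of cells in R1 (95% Clopper-Pearson interval 97.2% to 98.3%) and 96.7% in R2 (95.9% to 97.3%), and in low-Ttr cells in 89.5% (78.5% to 96.0%) and 84.2% (60.4% to 96.6%). With every cell thinned to 2000 UMIs, the shares were 87.1% and 85.2% in high-Ttr cells and 84.9% and 78.8% in low-Ttr cells, and no kept cell was too shallow for thinning. Over all low-Ttr cells, including those marked for other cell types, the share was lower than in high-Ttr cells in both mice, with and without thinning. Before thinning, where low-Ttr cells were shallower, the counting intervals of the classes overlapped in R2 alone. No interval was computed for the thinned shares. The 3 low-Ttr cells of R1 marked for microglia or fibroblasts had 0 Cryab UMIs, while they held 91 Ttr UMIs, and the 3 of R2 had 1 Cryab UMI and 32 Ttr UMIs. Without these marked cells, an alternative chosen after seeing the data, Cryab was found in 51 of 54 low-Ttr cells of R1 (94.4%) and 15 of 16 of R2 (93.8%). These shares were not thinned. Thinned shares without the marked cells were not computed, so the order of the classes at matched depth is not known for them.

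The mean level of Cryab over high-Ttr cells was 12.6 UMIs per 10000 in R1 and 12.0 in R2, a mean of 12.3 ± 0.407 (SD, n = 2 mice). Over low-Ttr cells it was 14.4 in R1 and 14.7 in R2, a mean of 14.5 ± 0.202 (SD, n = 2 mice). Low-Ttr cells were higher in both mice on this scale, but the total of a cell contains Ttr, the gene that divides the classes, which took 11.4% and 12.8% of the UMIs of high-Ttr cells and 0.744% and 0.399% of those of low-Ttr cells. With Ttr left out of the total, the mean level was 14.2 in high-Ttr and 14.5 in low-Ttr cells of R1, and 13.8 and 14.7 in R2, so most of the difference went. Without the cells marked for microglia or fibroblasts the mean over low-Ttr cells was 15.2 in R1 and 17.2 in R2. The middle 80% of high-Ttr cells spanned 4.79 to 21.1 UMIs per 10000 in R1 and 3.69 to 20.8 in R2, and the median cell had 9 Cryab UMIs in both mice.

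Between the classes, no member was called. In edgeR's quasi-likelihood test on UMIs summed per mouse and class, with TMM scaling and the mouse as a block, 11460 genes were tested and 1189 were called at an adjusted p of 0.05, 10.4% of them. Of the members only Cryab passed the filter on low counts, and 0 were called, 0 at an unadjusted p under 0.05 and 0 in DESeq2. In summed UMIs, Cryab was at 12.4 per 10000 in high-Ttr and 14.9 in low-Ttr cells of R1, a ratio of 1.204 (95% counting interval 1.06 to 1.36), and at 11.9 and 17.1 in R2, a ratio of 1.44 (1.22 to 1.68). These totals contain Ttr as well. With Ttr left out of them, a setting chosen after seeing the data, the ratio was 1.07 in R1 (0.951 to 1.21) and 1.26 in R2 (1.07 to 1.47), and only the interval of R2 lay above 1. Both ratios of R2 include 1 deep low-Ttr cell that held 25.6% of the Cryab UMIs of its class. They were not computed without that cell. With TMM scaling edgeR put the log2 fold change at -0.36 (SE 0.32, adjusted p = 0.651, n = 2 mice), and without it 0.41 (SE 0.22, adjusted p = 0.297), so the sign turned with the scaling. TMM also moved the median of all genes tested, from 0.37 to -0.38. Relative to the median of all genes Cryab stood at 0.01 with TMM and 0.04 without, but at -0.54 in DESeq2, 0.51 without the filter on low counts and 0.61 when cells holding Pax6 and Dkk3 were left out, so its place among all genes depended on the setting. The share of calls that were higher in low-Ttr cells was 36.9% with TMM and 73.2% without.

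The low-Ttr cells were themselves mixed. Those with both Pax6, an eye-field transcription factor, and Dkk3, a secreted Wnt modulator, had 225 Cryab UMIs in 44 cells of R1 and 120 in 11 cells of R2, or 15.2 and 18.6 UMIs per 10000. The remaining low-Ttr cells had 49 UMIs in 13 cells and 36 in 8 cells, or 13.6 per 10000 in each mouse, and include the cells marked for microglia or fibroblasts. Without those marked cells, a setting chosen after seeing the data, 10 cells of R1 held 49 UMIs and 5 cells of R2 held 35, or 17.5 (95% exact Poisson interval 13.0 to 23.1) and 19.8 (13.8 to 27.5) per 10000. The order against the cells with Pax6 and Dkk3 thus turned in both mice, and the counting intervals overlap those of the cells with Pax6 and Dkk3 (13.3 to 17.3 and 15.4 to 22.2). Cryab was found in 42 of 44 and 10 of 11 cells with Pax6 and Dkk3, in 9 of 13 and 6 of 8 of the others, and in 9 of 10 and 5 of 5 of the others without a mark. In R2, a single cell with Pax6 and Dkk3 and 13692 UMIs held 40 Cryab UMIs, 25.6% of the Cryab UMIs of its class. When cells with Pax6 and Dkk3 were left out of the low-Ttr sums, edgeR put the fold change of Cryab at -0.92 on the log2 scale (SE 0.33, adjusted p = 0.0866), and the median of all genes was -1.52. Markers of ciliary epithelium, 7 genes, summed to 8.58 and 7.90 UMIs per 10000 in low-Ttr cells and to 0.244 and 0.251 in high-Ttr cells. Slc4a4 held 122 of the 158 low-Ttr UMIs of R1 and 34 of the 72 of R2. Zic1 had 8 and 14 there, and Otx1 13 and 13. Opn3 and Wnt2b had 0 UMIs in low-Ttr cells of both mice, while Opn3 had 37 and 76 in high-Ttr cells. Of the 5 ciliary markers tested, 4 were higher in low-Ttr cells in edgeR, against 3.83% of all genes tested. In R1 and R2, 3 and 4 low-Ttr cells held at least 3 of the 7 markers. Their part in the Cryab counts was not tested.

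Cryab UMIs were spread over cells more widely than a Poisson draw, but not held by few cells. The spread was measured by an index, the mean squared deviation of a cell's count from that expected for its depth in units of the expected count, which is 1 for a Poisson draw. For Cryab it was 2.80 in R1 and 2.89 in R2 in high-Ttr cells, where the standard deviation under a Poisson draw is 0.0285 and 0.0275. In low-Ttr cells it was 1.94 and 2.91, with standard deviations of 0.197 and 0.336. All 4 values exceeded 1 by more than 3 standard deviations, the limit used for calling an excess. Most genes in high-Ttr cells showed such an excess, which was called for 87.2% of genes with at least 20 UMIs in high-Ttr cells of R1, 91.8% in R2, and 42.3% and 52.2% in low-Ttr cells. The median index of all those genes was 1.64 and 1.92 in high-Ttr cells and 1.63 and 2.22 in low-Ttr cells. An index of at least 2, which Cryab reached in the high-Ttr cells of both mice and in the low-Ttr cells of R2, was found for 17.4%, 40.3% and 57.2% of genes, and in the low-Ttr cells of R1 for 29.1%. With the cells marked for microglia or fibroblasts left out, the index of Cryab in low-Ttr cells was 1.74 in R1 and 2.29 in R2.

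**Figure D2:**
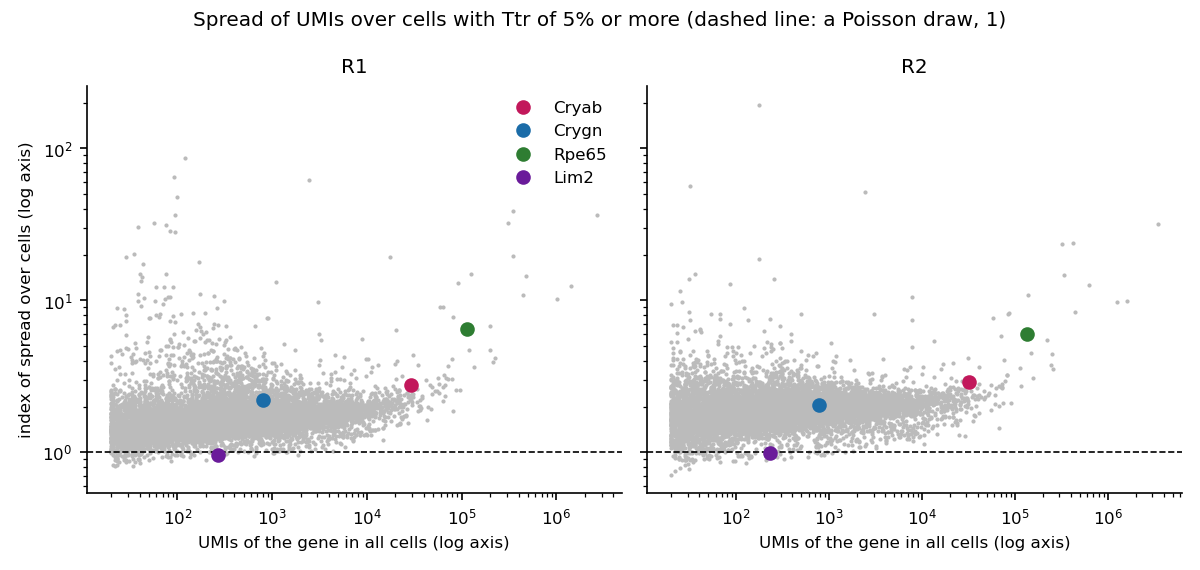
Index of spread against the UMIs of the gene, both on log axes, for every gene with at least 20 UMIs in high-Ttr cells of R1 (left) and R2 (right). The dashed line at 1 is a Poisson draw. The index climbs among abundant genes, and Cryab at 2.80 and 2.89 lies above the line within the cloud of genes of like abundance, below Rpe65 at 6.51 and 5.99, while Lim2 lies on the line at 0.97 and 0.99.

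The excess was seen at both ends of the distribution. In high-Ttr cells, 57 cells of R1 and 94 of R2 had no Cryab UMI, where a Poisson draw would leave 12.0 and 17.5. Cells with 20 or more UMIs numbered 388 and 517, where 327 and 469 would be drawn. The largest count in a cell was 69 in R1 and 61 in R2. The tenth of cells with the most Cryab UMIs held 24.9% of them in R1 and 28.4% in R2, and a Poisson draw over cells of these depths gives 22.6% and 26.1%. Beyond counting error, the level varied between high-Ttr cells with a coefficient of variation of 0.318 in R1 and 0.331 in R2. This estimate weights a cell by the square of its UMIs, so the deepest cells count most. In low-Ttr cells 6 of 57 and 3 of 19 cells had none, where 0.782 and 0.0560 would be drawn, and 3 of those 6 and 2 of those 3 were cells marked for microglia or fibroblasts.

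**Figure D3:**
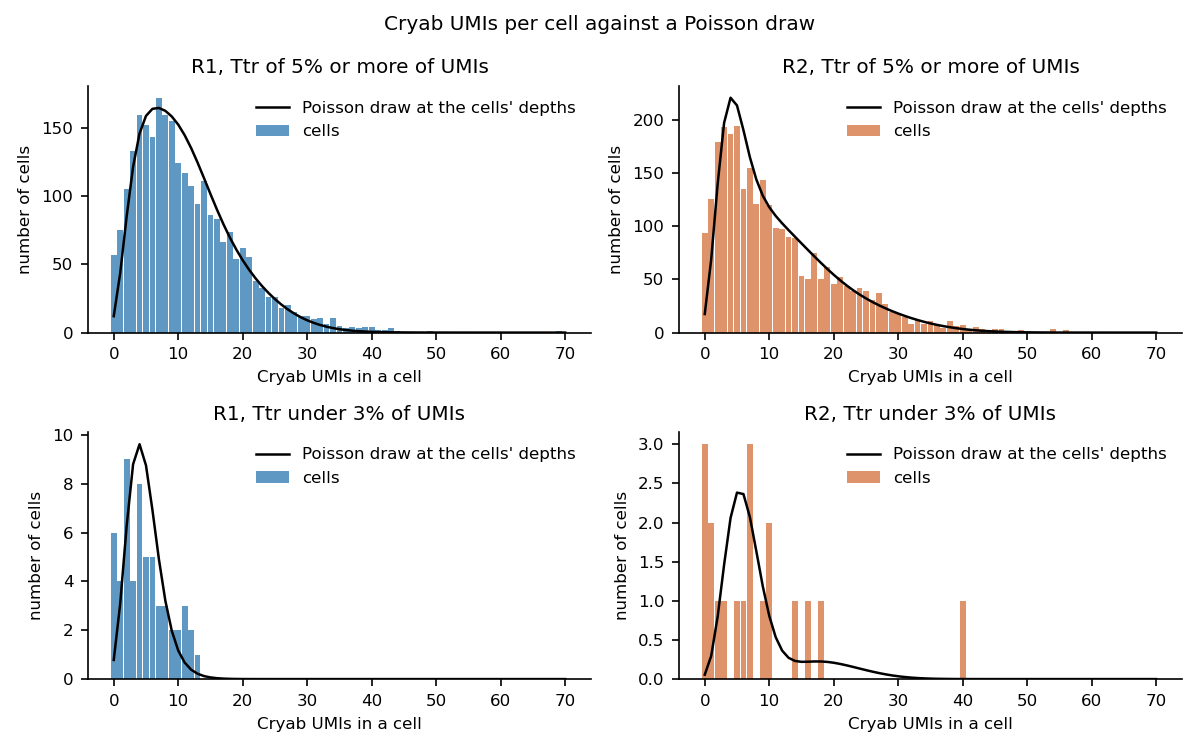
Number of cells by Cryab UMIs per cell in each mouse and class (bars), with the number a Poisson draw at the cells' depths gives (line). In high-Ttr cells the bars follow the line with an excess of cells at 0, 57 against 12.0 in R1 and 94 against 17.5 in R2, and a longer right tail, and in low-Ttr cells of R2 1 cell with 40 UMIs stands apart.

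Cryab kept pace with the RNA content of the cell. A Poisson regression of its UMIs on the log of the cell's UMIs in high-Ttr cells gave a slope of 0.94 in R1 and 0.98 in R2, where 1 means a constant share of the cell's RNA and 0 the same number in every cell. The slope of Rpe65 was 1.01 in R1 and 0.95 in R2, above that of Cryab in R1 and below it in R2. Pax6, sparse in these cells, had slopes of 0.31 and 0.09. High-Ttr cells were then divided into 5 equal bins by depth. Cryab went from 13.4 UMIs per 10000 in the shallowest bin (95% interval 12.8 to 13.9) to 11.9 in the deepest (11.7 to 12.1) in R1 and from 12.3 (11.8 to 12.8) to 11.8 (11.6 to 12.0) in R2. The shallowest bin was higher than the deepest beyond counting error in R1, but the intervals overlapped in R2. Across 5 bins by Ttr share the level stayed between 12.1 and 12.5 in R1 and between 11.2 and 12.3 in R2. The index within depth bins ranged from 2.50 to 3.19 in R1 and from 2.35 to 3.23 in R2. For the same variation of level this index would grow with the mean count, which rose from 4.57 to 19.9 UMIs per cell in R1 and from 3.87 to 23.7 in R2. Beyond a Poisson draw, the estimated coefficient of variation was 0.563 in the shallowest and 0.293 in the deepest bin of R1, and 0.587 and 0.288 in R2. The estimate was thus larger among shallow than among deep cells. Whether the level itself varied more among shallow cells was not tested.

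**Figure D4:**
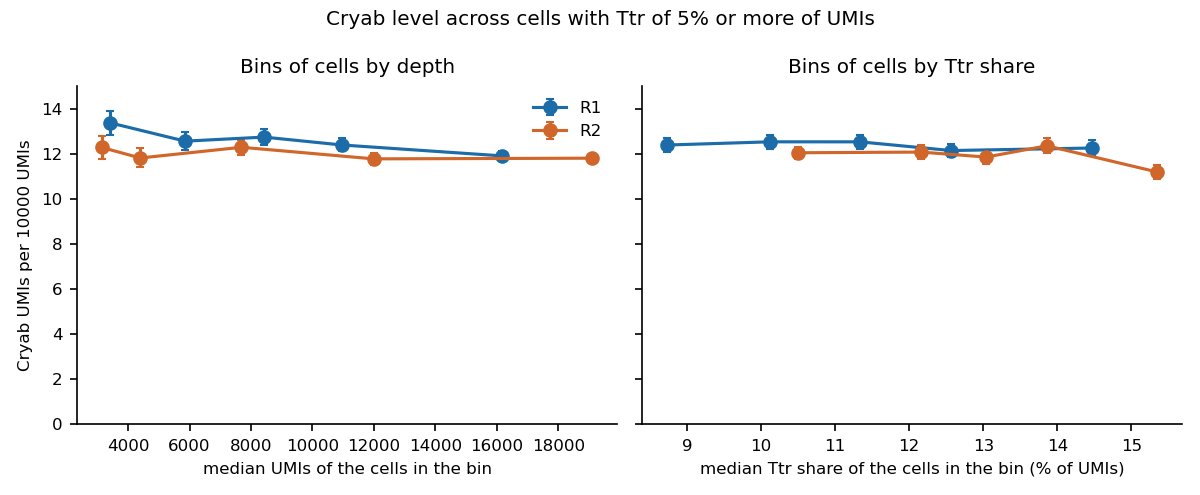
Cryab UMIs per 10000 UMIs in 5 equal bins of the high-Ttr cells, ordered by UMIs per cell (left) and by Ttr share of UMIs (right), with 95% exact Poisson intervals, for R1 and R2. The level stays between 11.2 and 13.4 in all 20 bins while the depth of the cells rises from a median of 3415 to 16177 UMIs (R1) and from 3145 to 19110.5 (R2).

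Across high-Ttr cells, no gene had a large correlation with Cryab. Pearson's r of the deviations from the Poisson expectation was highest, by the smaller of the values in the mice and among 8758 genes with at least 100 UMIs, for the metallothionein Mt1 with 0.12 over 2614 cells of R1 and 0.11 over 2828 cells of R2. Fth1, the ferritin heavy chain, had 0.11 and 0.10. The melanocyte genes Trpm1 and Mlana had 0.12 and 0.09, and 0.14 and 0.09. All these values are weak, and the cells of a mouse share a library. Counting error lowers r, most of all for sparse genes, so a low r does not show that a gene varies apart from Cryab. Lowest was the lipid carrier Apoe with -0.16 and -0.11.

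Of the 8 other lens crystallins listed beside the members, 3 had UMIs, and Crygn, an atypical γ-crystallin known from the retina, held most of them. Crygn (chr5:24751003-24758008, minus strand) had 806 UMIs in R1 and 773 in R2 in high-Ttr cells, with at least 1 UMI in 19.4% and 14.9% of cells, and 30 and 3 UMIs in low-Ttr cells. Its level in low-Ttr cells relative to high-Ttr cells was 4.81 in R1 (95% counting interval 3.23 to 6.93) and 1.14 in R2 (0.236 to 3.36). Only the interval of R1 lay above 1, and edgeR put the log2 fold change at 0.86 (SE 0.58, adjusted p = 0.480). Without TMM scaling the adjusted edgeR p was 0.0387 at a log2 fold change of 1.61, and without the mouse as a block it was 0.0220. The index of Crygn in high-Ttr cells was 2.21 in R1 and 2.05 in R2, and 1 cell of R1 held 26 UMIs. For the same variation of level the index grows with the mean count, so it does not rank Crygn against the more abundant Cryab at 2.80 and 2.89. In the deepest of 5 depth bins, Crygn was found in 26.2% of cells of R1 and 27.6% of R2, where a Poisson draw gives 37.9% and 43.3%. The share was below the Poisson draw in the other depth bins too. Cryge, a γ-crystallin of lens fibres, had 1 and 3 UMIs and Crybb1, a β-crystallin, 0 and 1, all in high-Ttr cells.

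Of the 8 listed Hspb genes, grouped here by symbol as small heat shock genes, 5 were tested. Whether each is a structural relative of Cryab was not examined. In low-Ttr cells 1 was higher and 1 was lower, against 3.83% and 6.54% of all genes tested. The median log2 fold change of the 5 was -0.70, which is the value of Hspb11 alone, beside -0.38 over all genes. Hspb8, which takes part in chaperone-assisted autophagy, had 227 and 158 UMIs in high-Ttr cells and 28 and 8 in low-Ttr cells, so its level was 16.0 (95% counting interval 10.4 to 23.7) and 14.9 (6.34 to 30.2) times as high in low-Ttr cells. It rose in both mice, and edgeR put the log2 fold change at 3.21 (SE 0.67, adjusted p = 4.12e-05). Without the low-Ttr cells holding Pax6 and Dkk3, Hspb8 was no longer called at a log2 fold change of 2.59 (SE 1.73, edgeR adjusted p = 0.812), so the direction stayed and the SE grew. Hspb6, a relative that binds Cryab in muscle, had 1148 and 1372 UMIs in high-Ttr cells and 1 and 0 in low-Ttr cells. It fell in edgeR (adjusted p = 0.000678), and in R1 the level in low-Ttr cells was 0.113 of that in high-Ttr cells (0.00285 to 0.629), while in R2 a count of 0 allows up to 0.645 of it. DESeq2 gave an adjusted p of 0.0545 for Hspb6. Without the cells holding Pax6 and Dkk3, which held its single UMI in low-Ttr cells, Hspb6 was not called, with a fitted log2 fold change of -12.29 (SE 5.35, edgeR adjusted p = 0.257) that rests on 0 UMIs and is no bound. Hspb2, whose span overlaps Cryab on the other strand, had 404 and 411 UMIs in high-Ttr cells and 14 and 0 in low-Ttr cells and was not called (log2 fold change 0.56, SE 0.80, edgeR adjusted p = 0.798). Hspb11 had 1395 and 1783 UMIs in high-Ttr cells and 16 and 3 in low-Ttr cells and was not called (-0.70, SE 0.55, edgeR adjusted p = 0.576).

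**Figure D5:**
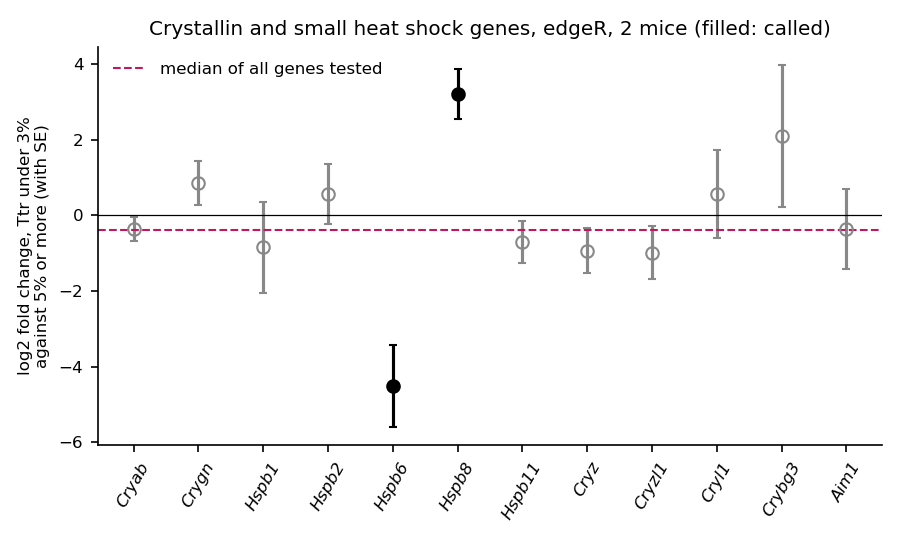
edgeR log2 fold change of low-Ttr against high-Ttr cells with its SE for crystallin, crystallin-related and small heat shock genes, from UMIs summed in 2 mice with TMM scaling. Filled points are called, and the dashed line is the median of all genes tested, -0.38. Cryab lies close to that line at -0.36 with this scaling, Hspb8 lies at 3.21 and Hspb6 at -4.50.

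Of the enzyme and other relatives of crystallins, such as the quinone reductase Cryz, 5 of 7 were tested and 0 were called in edgeR or DESeq2. In edgeR 10.4% of all genes tested were called in either direction. At an unadjusted edgeR p under 0.05 the number of these relatives was 0 as well. Their median log2 fold change was -0.35, beside -0.38 over all genes tested. Cryz had 1307 and 1504 UMIs in high-Ttr cells and 11 and 3 in low-Ttr cells, Cryzl1 850 and 1165 against 6 and 3, Aim1 324 and 287 against 5 and 0, and Cryl1 165 and 221 against 3 and 2. With so few counts in low-Ttr cells, differences of moderate size were not detectable. Among 15 regulators of crystallin genes, 9 were tested and 1 was called, Pax6, beside 10.4% of all genes tested in edgeR. Pax6 had 114 and 74 UMIs in high-Ttr and 135 and 42 in low-Ttr cells (edgeR log2 fold change 6.56, SE 0.42, adjusted p = 3.79e-52). The eye-field gene Six3 had 3185 and 3032 UMIs in high-Ttr and 27 and 17 in low-Ttr cells, and Mitf, the pigment cell regulator, 1914 and 2282 against 9 and 5, and Mafg, a small Maf protein, 730 and 699 against 13 and 2, without a call. Prox1 and Foxe3, which direct lens fibre and lens epithelial genes, had 0 UMIs.

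Markers of lens fibres were for the most part sparse, but not all genes listed for lens epithelium were. Of 12 lens fibre genes, 7 in R1 and 9 in R2 had UMIs in high-Ttr cells, summing to 0.845 and 0.846 UMIs per 10000, and 3 and 2 in low-Ttr cells, summing to 1.09 and 0.659. The lens connexin Gja3 and the fibre gene Lgsn were at 0 in both mice. Tdrd7 had 838 and 1032 UMIs in high-Ttr cells, the beaded filament gene Bfsp2 460 and 558, Hsf4 300 and 286 and the fibre membrane gene Lim2 269 and 232. Of the 12 genes 6 were tested and 0 were called in edgeR or DESeq2, beside 10.4% of all genes tested in edgeR. Of those 6, 2 had an unadjusted edgeR p under 0.05. No median is given, since Mip, Grifin and Hsf4 had 0 UMIs in every low-Ttr library. The 6 genes listed for lens epithelium summed to 5.51 and 5.67 UMIs per 10000 in high-Ttr cells and to 12.8 and 11.0 in low-Ttr cells. Among them Foxe3, Cdh1 and Prox1 were at 0 in both classes. Pdpn had 10260 and 12372 UMIs in high-Ttr and 45 and 23 in low-Ttr cells, and Gja1 2868 and 2873 against 189 and 77. Gja1 was higher in low-Ttr cells (log2 fold change 2.28, SE 0.32, edgeR adjusted p = 1.12e-10) and Pdpn lower (-1.59, SE 0.35, edgeR adjusted p = 0.000108). With 3 or more lens fibre genes, 50 of the 2614 high-Ttr cells of R1 and 37 of the 2828 of R2 were marked. None of the 57 and 19 low-Ttr cells, which were few and shallower, held 3 or more of these genes. The part of these genes in the crystallin counts was not tested.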

How the data were processed

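The UMI counts per gene and cell were deposited as whole numbers without normalization, 1 matrix per mouse. Per the labels, the authors used bcl2fastq 2.20.0.422 and Cell Ranger 1.2.0 and the GRCm38 genome. Strand use in counting is not given in the sources used here. The paper's ambient RNA correction was not applied.

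Cells with under 500 genes or over 5% mitochondrial UMIs were left out, which kept 2782 and 2966 cells, and the 4% with the highest doublet score, computed after the idea of DoubletFinder, were removed (111 and 119 cells). Levels are UMIs per 10000 UMIs. Intervals are exact at 95%. The index of spread was computed for genes with at least 20 UMIs in a mouse and class. UMI counts were summed per mouse and class to 4 libraries of 91115 to 26878505 UMIs and tested with edgeR 4.0.16 (R 4.3.3), with filterByExpr, TMM, a mouse block and Benjamini-Hochberg adjustment, since both sums come from the same animal. DESeq2 1.42.0 was an alternative. Other values came from Python 3.11.15, numpy 2.4.6 and scipy 1.17.1.

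In simulated sums where 200 genes were given a known change, edgeR, tested this way, recovered 0 of 200 at a log2 change of 1 (11155 genes), 29 at 2 and 103 at 4 (11209 genes). The changed genes were drawn at random from all that passed the filter, at any abundance. The draws used a common dispersion and the same mean profile in both classes otherwise. The recovery of a gene as abundant as Cryab was not simulated apart. The members and lists were chosen with earlier results of these data known. Named were all members, and of other lists the called genes and, where fewer than 4, the most abundant up to 4. For likeness the rule took the 5 genes with the largest r. Values of some genes that the rule or the lists name are not reported here.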

Additional observations from a re-analysis of the deposited data

How the results depend on the processing

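No member was called between low-Ttr and high-Ttr cells under any of the 11 alternatives (scaling, tool, filters, replicate block, class limits and cells left out), and the adjusted p of Cryab ranged from 0.0866 to 0.834, with edgeR or DESeq2. Cryab was the only member tested, save that 3 members were tested without the filter on low counts. The other members could thus not be called. In the simulated sums edgeR recovered 0 of 200 genes at a log2 change of 1, so a change of that size in Cryab may be missed. The log2 fold change of Cryab was below 0 in 10 of the alternatives and 0.41 without TMM, the reversed sign. With the replicate block left out it was -0.36 (edgeR adjusted p = 0.358), the mouse being the pair since both sums come from it. The number of genes called then rose from 1189 to 2168 of 11460 tested. Without low-Ttr cells holding Pax6 and Dkk3, 574 of 11231 genes tested were called. In a single mouse, a value with no test, the TMM-scaled log2 ratio of Cryab was -0.36 to -0.39. Crygn had -0.69 without replicate 1 and 1.61 without replicate 2. Without the cells holding Pax6 and Dkk3, Hspb8 (2.59, SE 1.73) and Hspb6 (-12.29, SE 5.35) kept their direction and were not called (edgeR adjusted p = 0.812 and 0.257). The last setting also leaves fewer low-Ttr cells, and the cause was not tested in any of these cases.

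Cryab was in excess over a Poisson draw in both mice under all alternatives, except that an index of at least 2 left 0 members in low-Ttr cells. Counting genes with 5 to 19 UMIs and a cell with 2 or more, a rule chosen after seeing the data, gave 2 members in high-Ttr cells. The counts were 1 without replicate 1 or 2. The mean level of Cryab in high-Ttr cells was 14.0 UMIs per 10000 with Ttr left out, beside 14.6 in low-Ttr cells. In low-Ttr cells it was otherwise 14.3 without doublet removal, 14.1 in every deposited cell, 16.0 in summed UMIs and 16.2 without cells marked for microglia, fibroblast or endothelium, where 94.1% of cells held Cryab. The 57 and 19 low-Ttr cells, with 184086 and 91115 UMIs, limit every statement on that class.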
